A study of Mus musculus with 12 samples.

Results

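The Kruppel-like factors (KLFs) are a family of zinc finger transcription factors, and 10 of their genes are described here: Klf2, Klf3, Klf4, Klf6, Klf7, Klf9, Klf10, Klf11, Klf12 and Klf13. They were taken by gene symbol from a count table of 55011 genes, and all 10 were among the 13295 genes with enough counts to be tested. The cells are regulatory T cells (Treg), the CD4 lineage that holds other lymphocytes in check under the transcription factor Foxp3. Male C57BL/6 mice aged 21 days gave the Treg, sorted from spleen or lung as live cells positive for TCRβ, CD4, CD25 and GFP, and polyadenylated RNA was sequenced by Smart-seq2, a low-input method. The 4 groups had 3 libraries each. WT Treg of both tissues carried the reporter allele Foxp3.ires.GFP. Spleen ∆Foxp3 Treg are labelled ∆Foxp3.EGFP.iCre X R26.YFP and lung ∆Foxp3 Treg ∆Foxp3.ires.GFP, while the protocol text names the second allele alone. Allele and tissue therefore cannot be told apart wherever the ∆Foxp3 groups of the tissues are compared. By these labels, spleen ∆Foxp3 Treg also differ from spleen WT Treg in the iCre construct and the R26.YFP reporter. Loss of Foxp3 and construct thus cannot be told apart in the spleen comparison of genotypes. The gate asked for GFP and CD25 in every group. Perfused lungs went through collagenase and DNase digestion in the warm and magnetic depletion of other cells, whereas spleens were dispersed mechanically, so tissue and tissue digestion also cannot be told apart. Whether the 3 libraries of a group are 3 mice is not stated, so a p-value here reflects library-to-library spread, which may be technical.

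KLFs bind GC-rich and CACCC-containing DNA through their zinc fingers, and their diverse amino-terminal parts recruit activators or repressors. In T cells the family is best known through Klf2, which keeps resting cells quiescent and drives the receptors for lymph node homing and exit. Foxo1 induces Klf2, and antigen receptor and cytokine signals through AKT switch this axis off. Klf3 and Klf12 recruit the CtBP corepressors, Klf10 and Klf11 are induced by TGF-beta and recruit Sin3a, and Klf13 was first described as an activator of Ccl5 in T lymphocytes.

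Library totals ran from 3958892 to 9025150 counts, and 3 counts in a library correspond to 0.334 to 0.777 CPM (library-size-normalised counts, scaled here by TMM factors). Foxp3, the targeted gene, was at 1026, 991 and 1096 CPM in spleen WT and 159, 114 and 227 in spleen ∆Foxp3, and at 1418, 1361 and 1328 CPM in lung WT and 469, 385 and 189 in lung ∆Foxp3. It was lower in all 3 libraries of both ∆Foxp3 groups, by 2.64 ± 0.29 (log2, ± SE) in spleen and 1.98 ± 0.29 in lung. There are 3 libraries that stand apart: spleen WT 1, where the predicted genes Gm10800 and Gm10801 take 0.112% of counts against 0.743 to 2.94% elsewhere, lung WT 1, with a summed level of 10 myeloid markers of 515 CPM against 161 to 288 in the other lung libraries (259 to 501 in spleen), and lung ∆Foxp3 3, with 2.44% mitochondrial counts against 1.40 to 1.63% elsewhere. Results that change without these libraries are given with and without them. The samples are bulk, so fewer cells of a type and less RNA per cell cannot be told apart.

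Per length, Klf13 and Klf6 were the most abundant members. Averaged over the 12 libraries, levels in CPM per kilobase of exon were 93.3 for Klf13, 70.1 for Klf6, 19.2 for Klf2, 16.4 for Klf10, 5.10 for Klf7, 4.75 for Klf11, 1.29 for Klf12, 0.597 for Klf9 and 0.338 for Klf4, with Klf3 between Klf10 and Klf7. The order differed between groups. In spleen WT it ran from Klf13 (120 ± 19.3 CPM per kilobase, SD, n = 3) over Klf6 (46.7 ± 9.87) to Klf2 (19.6 ± 3.22) and Klf3 (19.3 ± 1.13), and only that last pair of neighbours overlapped among the leading members. In lung WT, Klf6 (134 ± 21.0) stood above Klf13 (103 ± 4.99) with no overlap, followed by Klf2 (31.5 ± 3.60) and Klf3 (22.9 ± 2.17). In lung ∆Foxp3, Klf6 (76.1 ± 13.2) and Klf13 (69.3 ± 5.56) overlapped, and Klf10 (25.4 ± 0.491) took the third place. In spleen ∆Foxp3, Klf13 (81.2 ± 28.3) led, and Klf6 (24.0 ± 3.53) overlapped with Klf10 (18.8 ± 2.59), which overlapped with Klf2 (12.6 ± 4.77). Klf3 thus stood among the 4 most abundant members in both WT groups. In both ∆Foxp3 groups it was level with Klf7, at 2.99 ± 0.407 CPM per kilobase in spleen and 2.88 ± 1.23 in lung. The Klf7 level divides by all 8131 exon bases, of which 3196 are shared with an opposite-strand transcript. This placing therefore depends on how reads in the shared bases were counted, which is not known. The summed level of the 10 members was 1363 to 1711 CPM in spleen WT, 692 to 1160 in spleen ∆Foxp3, 1702 to 1948 in lung WT and 1006 to 1219 in lung ∆Foxp3. Klf13 alone made up 41.9% (lung WT 1) to 70.7% (spleen ∆Foxp3 3) of this sum. Its change with genotype passed in neither tissue, so the sum is not read as a change of the family.

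**Figure D1:**
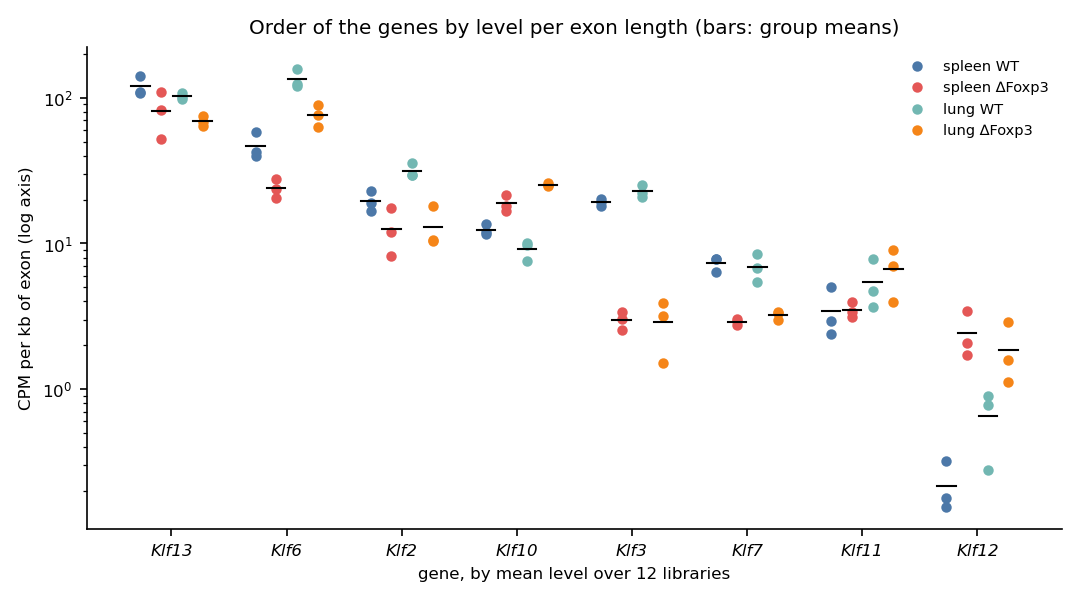
Levels of 8 Kruppel-like factor genes in CPM per kilobase of exon (log axis), 1 point per library and a bar at each group mean. Klf13 and Klf6 sit on top. Klf3, level with Klf2 in spleen WT and below it in lung WT, is level with Klf7 in both ∆Foxp3 groups by full exon length.

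∆Foxp3 Treg had less Klf3, Klf6 and Klf7 RNA and more Klf10 and Klf12 RNA than WT Treg of the same tissue. In spleen, edgeR's quasi-likelihood test called 2 of the 10 members higher in ∆Foxp3 (14.1% of all tested genes were called higher) and 3 lower (12.5% of all). In lung it called 2 higher (9.74% of all) and 4 lower (10.5% of all). Klf2 was the further member that fell in lung. The median log2 change of the 10 members was -0.27 in spleen and -0.13 in lung, beside -0.02 and -0.01 over all tested genes. Without the 3 libraries that stand apart, 5 members were called in spleen and 3 in lung, where Klf3, Klf7 and Klf10 passed.

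**Figure D2:**
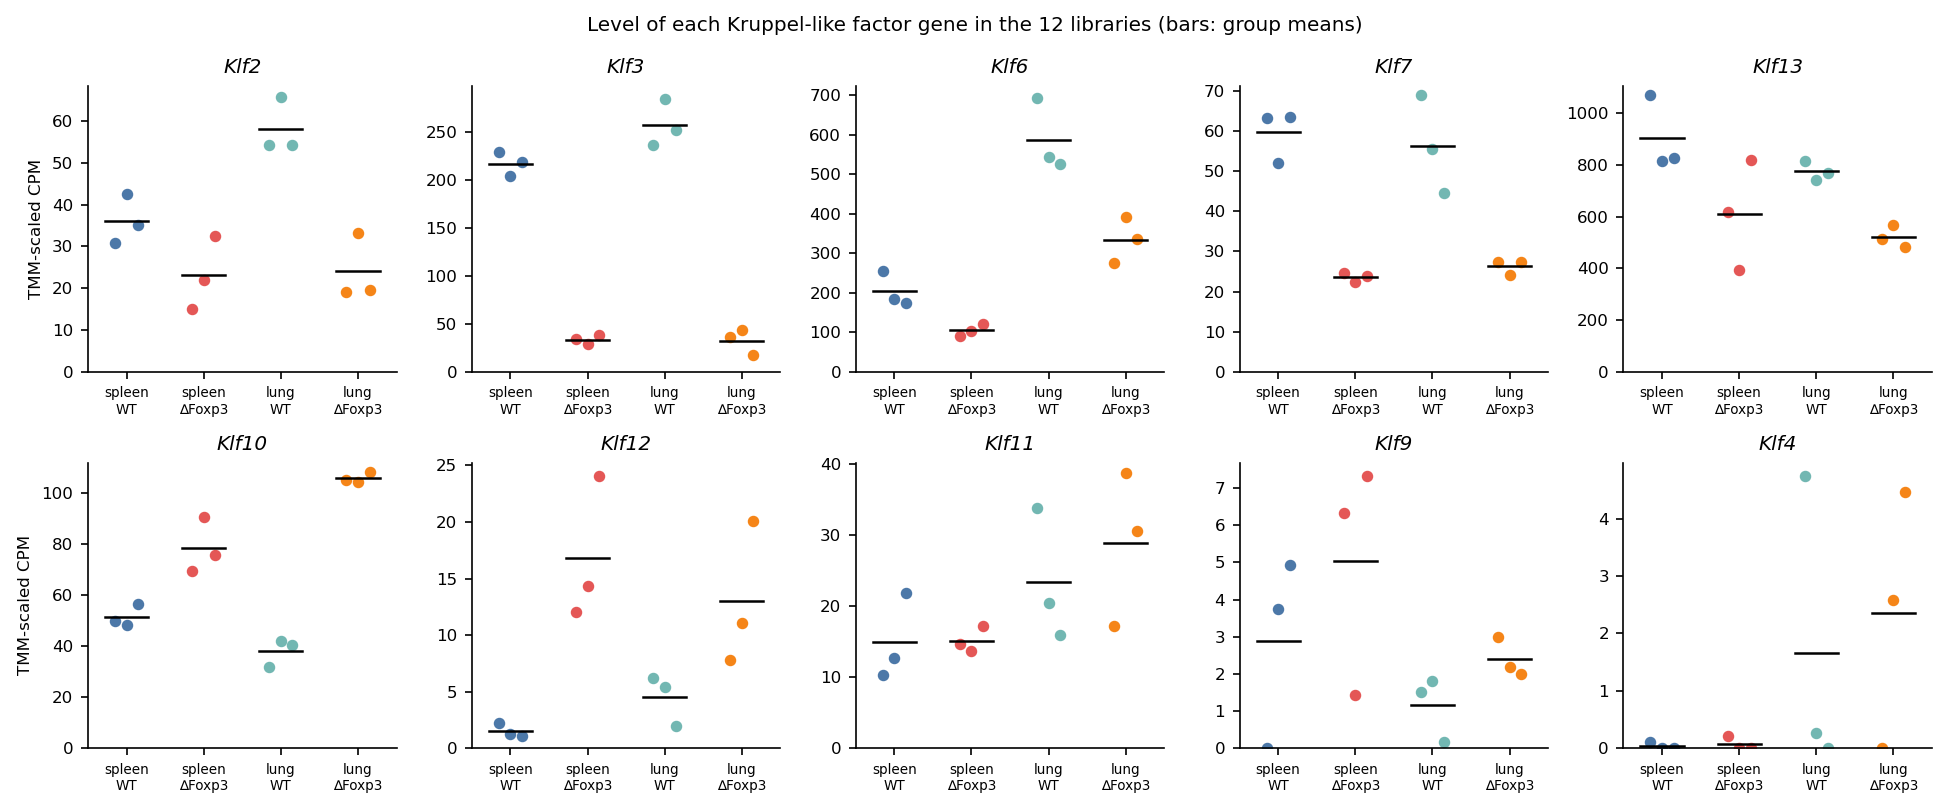
TMM-scaled CPM of each of the 10 genes in each library, with a bar at the group mean and an axis from 0 in each panel. Klf3 and Klf7 separate ∆Foxp3 from WT in both tissues, Klf6 separates both genotype and tissue, and Klf10 and Klf12 are higher in both ∆Foxp3 groups.

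Klf3, a repressor that works through CtBP, had the largest fall among the 10 members in both tissues. Its level was 229, 203 and 218 CPM in spleen WT and 34.1, 28.8 and 37.9 CPM in spleen ∆Foxp3. The lung WT libraries held 236, 284 and 251 CPM and the lung ∆Foxp3 libraries 36.0, 44.0 and 17.0 CPM. Every ∆Foxp3 library lay far below every WT library, and lung ∆Foxp3 3 was the lowest of all 12. The change was -2.68 ± 0.25 (log2, ± SE), a 6.43-fold lower level, in spleen (adjusted p = 7.06e-06) and -2.99 ± 0.26, 7.93-fold lower, in lung (adjusted p = 5.28e-06). Klf3 lies on chromosome 5 at 64803388-64832901 of mm10, plus strand. The antisense transcript Gm20033 shares 404 exon bases of Klf3 and had at most 10 counts in any library. That count does not show how reads in the shared bases were assigned.

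Klf7, a member better known from the nervous system, was at 63.3, 52.2 and 63.6 CPM in spleen WT and 24.7, 22.3 and 24.0 CPM in spleen ∆Foxp3. Lung WT libraries were at 68.9, 55.5 and 44.5 CPM and lung ∆Foxp3 libraries at 27.5, 24.2 and 27.3 CPM. The 6 ∆Foxp3 libraries lay within a narrow band below all WT libraries. The log2 change was -1.33 ± 0.20 in spleen (adjusted p = 0.000214) and -1.10 ± 0.20 in lung (adjusted p = 0.00159). Klf7 lies on chromosome 1 at 64029447-64122282, minus strand. The opposite-strand transcript Gm26649 covers 3196 of its 8131 exon bases. The sources do not say whether counting used the strand or how it treated reads in shared bases. Reads of the pair therefore cannot be told apart, and whether Klf7 lost counts there is not known.

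Klf6, an early-response member that many cell types express, was at 255, 186 and 175 CPM in spleen WT and 90.3, 105 and 121 CPM in spleen ∆Foxp3. Lung levels were 694, 543 and 525 CPM in WT and 275, 391 and 336 CPM in ∆Foxp3. The genotypes did not overlap in either tissue, and even the lowest lung ∆Foxp3 library was above all spleen libraries. The log2 change with genotype was -0.96 ± 0.19 in spleen (adjusted p = 0.00168) and -0.81 ± 0.18 in lung (adjusted p = 0.00677). In lung this call ended without lung WT 1, the highest library (-0.64, adjusted p = 0.055), and without the 3 libraries that stand apart (-0.65, adjusted p = 0.0564).

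The bases before the RefSeq start of these 3 genes, which fell in both tissues, are shown because the CACCC element is the family's own binding motif and they hold it to different extents. The sequences are from RefSeq (build GRCm38.p6, the assembly also named mm10), which matched 9 of the 10 members (all but Klf10). They are written on the gene's strand and stop where an annotated exon begins, with CACCC and its reverse complement GGGTG in capitals. Klf3 is shown for chr5:64803271-64803387 (plus strand), Klf7 for chr1:64121492-64121639 (minus strand) and Klf6 for chr13:5861239-5861481 (plus strand). The Klf3 and Klf6 stretches end at the first base of the gene models, whereas that of Klf7 precedes an internal start and lies in an intron of the Klf7 model given above.
Klf3: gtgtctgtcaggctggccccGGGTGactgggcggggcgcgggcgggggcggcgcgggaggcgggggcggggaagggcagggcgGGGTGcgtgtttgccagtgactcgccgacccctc
Klf7: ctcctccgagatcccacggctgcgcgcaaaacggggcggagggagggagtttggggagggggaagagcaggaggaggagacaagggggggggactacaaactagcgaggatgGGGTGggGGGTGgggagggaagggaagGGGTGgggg
Klf6: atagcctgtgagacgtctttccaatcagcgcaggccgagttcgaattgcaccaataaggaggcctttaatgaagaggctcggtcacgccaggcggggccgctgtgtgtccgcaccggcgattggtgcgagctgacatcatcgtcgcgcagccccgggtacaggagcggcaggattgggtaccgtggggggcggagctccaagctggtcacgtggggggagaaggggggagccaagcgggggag
The printed stretches hold 2 matches for Klf3, 3 for Klf7 and 0 for Klf6. Over the whole window of 250 bases before the start, exons included, Klf3 held 5 and Klf7 3, Klf2, Klf9, Klf12 and Klf13 held 1 each, and Klf4, Klf6 and Klf11 held 0. Of 32851 such windows, 52% hold CACCC on either strand, with a median of 1 match. The GC box CCGCCC, searched on both strands and able to share bases with CACCC, occurred 6 times for Klf3, 4 for Klf4 and Klf11, 3 for Klf13, 2 for Klf2, 1 for Klf6 and Klf7 and 0 for Klf9 and Klf12, and in 32.7% of all windows. A match is a description of the letters, not a binding site.

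Klf2, the quiescence and trafficking factor, was at 30.7, 42.5 and 35.2 CPM in spleen WT and 15.1, 22.1 and 32.6 CPM in spleen ∆Foxp3. The corresponding lung levels were 54.3, 65.8 and 54.3 CPM in WT and 19.2, 33.3 and 19.7 CPM in ∆Foxp3. The lung groups did not overlap, whereas spleen ∆Foxp3 3 reached into the spleen WT range. Klf2 fell in lung by 1.27 ± 0.29 (log2; adjusted p = 0.00677), a call that ended without the 3 libraries that stand apart (-1.16, adjusted p = 0.0587). In spleen the change was -0.62 ± 0.29 (95% interval -1.23 to -0.02) and did not pass (adjusted p = 0.121). Leaving out spleen ∆Foxp3 3 it was -0.96 and passed (adjusted p = 0.028), as it did with limma voom (-1.05, adjusted p = 0.0123).

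Klf13 was at 1071, 813 and 825 CPM in spleen WT and 619.7, 394 and 819.6 CPM in spleen ∆Foxp3. Lung WT gave 817, 743 and 768 CPM and lung ∆Foxp3 515, 567 and 484 CPM. Again spleen ∆Foxp3 3 overlapped with WT, while the lung groups did not overlap. The log2 change was -0.56 ± 0.20 in spleen (adjusted p = 0.0545) and -0.57 ± 0.20 in lung (adjusted p = 0.0617), and neither passed. The spleen value passed under 5 of 24 alternatives, among them leaving out spleen ∆Foxp3 3 (-0.83, adjusted p = 0.00514), and the lung value under 6 of 24, among them leaving out spleen ∆Foxp3 2 (adjusted p = 0.0118) or spleen ∆Foxp3 3 (adjusted p = 0.0231).

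Klf10, a TGF-beta-inducible factor with a reported role in Treg, moved the other way. Its level was 49.9, 48.2 and 56.8 CPM in spleen WT and 69.5, 90.6 and 75.8 CPM in spleen ∆Foxp3. Lung WT libraries held 31.9, 42.2 and 40.6 CPM, and lung ∆Foxp3 libraries held 105, 104 and 108 CPM. The genotypes did not overlap in either tissue, and the 3 lung ∆Foxp3 libraries were the highest and almost equal. Klf10 rose by 0.61 ± 0.17 in spleen (log2; adjusted p = 0.0144) and by 1.47 ± 0.17, 2.77-fold, in lung (adjusted p = 5.55e-05). The spleen call ended without spleen WT 2 (0.56, adjusted p = 0.0554) or spleen ∆Foxp3 2 (0.49, adjusted p = 0.0587), without a low-count filter (adjusted p = 0.055) and with only the spleen groups in the fit (adjusted p = 0.0568).

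Klf12, a CtBP-recruiting repressor related to Klf3, also rose, from a low level. It was at 2.23, 1.25 and 1.08 CPM in spleen WT (20, 7 and 7 counts) and 12.02, 14.4 and 24.1 CPM in spleen ∆Foxp3. Lung levels of Klf12 were 6.25, 5.44 and 1.93 CPM in WT and 7.84, 11.1 and 20.1 CPM in ∆Foxp3. The spleen genotypes lay far apart, and those of lung were close but did not overlap. The log2 change was 3.43 ± 0.55 in spleen, 10.7-fold, with 95% interval 2.26 to 4.59 (adjusted p = 0.000378), and 1.53 ± 0.51 in lung (adjusted p = 0.0468). The lung call held under 13 of 24 alternatives, with adjusted p from 0.0137 to 0.217. It ended on leaving out spleen WT 2 (adjusted p = 0.0545), spleen ∆Foxp3 1 (0.0509), spleen ∆Foxp3 2 (0.0514), lung WT 1 (0.0551), lung WT 2 (0.0875), lung WT 3 (0.14), lung ∆Foxp3 2 (0.0759) or lung ∆Foxp3 3 (0.217), and also on leaving out the 3 libraries together (0.126), with upper-quartile factors (0.056) and with the replicate number as a block (1.49, adjusted p = 0.0846).

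Klf11, a close relative of Klf10, passed in neither tissue. It was at 10.4, 12.7 and 21.9 CPM in spleen WT, 14.6, 13.7 and 17.2 in spleen ∆Foxp3, 33.8, 20.5 and 16.0 in lung WT and 17.3, 38.9 and 30.6 in lung ∆Foxp3. The genotypes overlapped in both tissues, at a log2 change of 0.03 ± 0.37 in spleen (95% interval -0.76 to 0.82) and 0.31 ± 0.36 in lung (-0.47 to 1.09). The remaining members were near the floor of 3 counts in many libraries. Klf4, known from stem cells and from its brake on T cell division, had 1, 0 and 0 counts in both spleen groups, 22, 1 and 0 in lung WT and 0, 13 and 20 in lung ∆Foxp3. Klf9, a target of glucocorticoid and thyroid hormone, had 0, 21 and 32 counts in spleen WT, 29, 6 and 51 in spleen ∆Foxp3, 7, 7 and 1 in lung WT and 13, 11 and 9 in lung ∆Foxp3. The 3 lung ∆Foxp3 libraries were all above the lung WT libraries in Klf9, by few counts, and its groups overlapped in spleen, as did those of Klf4 in both tissues. Neither gene passed in either tissue, with adjusted p from 0.545 to 0.933.

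**Figure D3:**
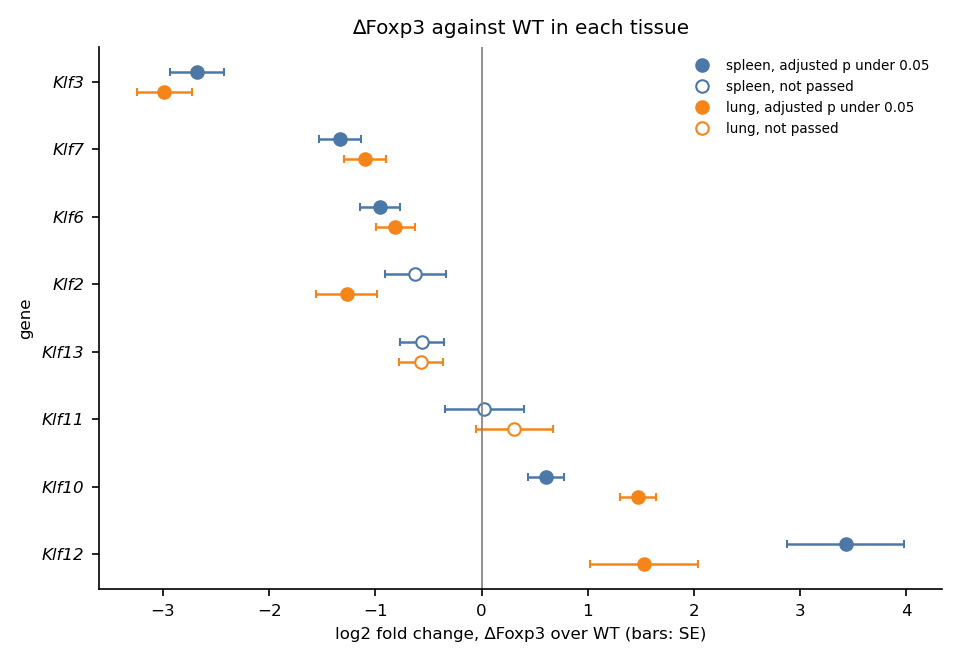
Log2 fold change of ∆Foxp3 over WT (points, bars ± SE) for 8 Kruppel-like factor genes in spleen and lung; filled points have an adjusted p under 0.05. Klf3, Klf7 and Klf6 lie below 0 and Klf10 and Klf12 above 0 in both tissues, and Klf2 passes in lung alone.

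Whether the effect of genotype differed between tissues was tested as an interaction, with the allele difference of the ∆Foxp3 groups in view. edgeR called 0 of the 10 members (0.143% of all tested genes were called higher and 0.782% lower). At an unadjusted p under 0.05 there were 2, a count that has no share of all tested genes beside it. Klf10 had a larger rise in lung, with a difference of 0.87 ± 0.24 (log2; unadjusted p = 0.00233, adjusted p = 0.134), and DESeq2 and limma voom each called it alone among the members (adjusted p = 0.0404 and 0.0418). Klf12 had the smaller rise in lung, with -1.90 ± 0.73 (unadjusted p = 0.0202, adjusted p = 0.384). For Klf2 the difference was -0.64 ± 0.40 (95% interval -1.50 to 0.22), so the call in lung alone does not show that the tissues differ. For Klf3 it was -0.30 ± 0.34, for Klf6 0.15 ± 0.26 and for Klf7 0.24 ± 0.28.

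Between tissues, Klf6 was the one member called, in both genotypes. In WT it was higher in lung by 1.52 ± 0.19 (log2, 2.86-fold, adjusted p = 0.000432), the only call among the 10 members (3.1% of all tested genes were higher in lung and 1.03% lower). In ∆Foxp3 it was higher in lung by 1.66 ± 0.19 (3.17-fold, adjusted p = 0.000515), again the only call (0.549% of all higher and 0.173% lower). Every lung library was above every spleen library of its genotype, and both calls held under all 24 alternatives. At an unadjusted p under 0.05, 4 members were higher and 1 lower in WT lung, and 4 were higher and 0 lower in ∆Foxp3 lung. Klf4, near the floor of counts, was among the higher ones in both genotypes (edgeR unadjusted p = 0.0232 and 0.0218). The share of all tested genes at that threshold is not given, so these counts are not read as a result about the members. In WT, Klf2 was 0.69 ± 0.28 higher in lung (adjusted p = 0.192) with no overlap between the groups. Klf10 was 0.43 ± 0.17 lower in WT lung (adjusted p = 0.169) and 0.43 ± 0.17 higher in ∆Foxp3 lung (adjusted p = 0.415), also with no overlap in either genotype. For Klf3 the difference between tissues did not pass, at 0.25 ± 0.23 in WT (95% interval -0.25 to 0.75) and -0.06 ± 0.25 in ∆Foxp3 (-0.59 to 0.48).

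**Figure D4:**
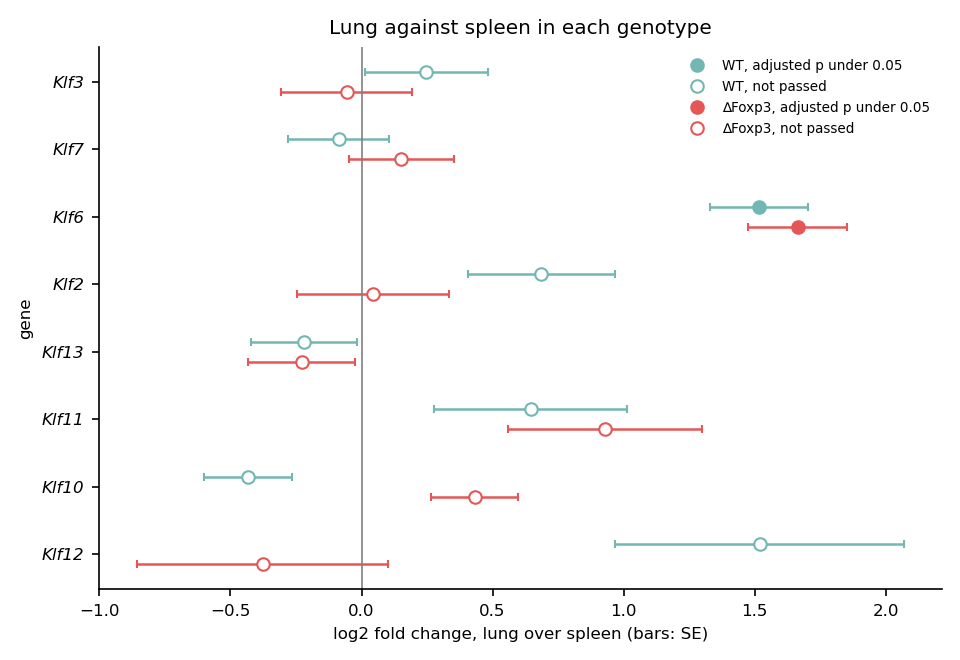
Log2 fold change of lung over spleen (points, bars ± SE) for 8 Kruppel-like factor genes in WT and ∆Foxp3; filled points have an adjusted p under 0.05. Klf6 alone is filled, at 1.52 in WT and 1.66 in ∆Foxp3, and Klf10 lies on opposite sides of 0.

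Genes that enzymatic digestion and cell handling are known to induce were examined beside Klf6. Of 21 immediate early and heat shock genes, none of them a KLF, 7 were higher, 3 lower and 11 did not pass in WT lung against WT spleen (median log2 difference 1.09), and 7 were higher, 0 lower and 14 did not pass in ∆Foxp3 lung (median 1.56). Over all tested genes, 3.1% were higher and 1.03% lower in WT lung, and 0.549% higher and 0.173% lower in ∆Foxp3 lung. The sum over the 21 genes is given next. Their summed level was 2458 to 4016 CPM in spleen WT, 2192 to 3422 in spleen ∆Foxp3, 4439 to 7453 in lung WT and 6776 to 9529 in lung ∆Foxp3. The lung WT library with the highest sum, lung WT 1, was also the highest in Klf6. Within lung, the sum was higher in ∆Foxp3 for 2 of 3 libraries than in any WT library, and Klf6 was lower in all 3. That comparison is between genotypes of digested lung and is no test of the difference between tissues. The list did not move as a block: Hspa1a, a heat shock gene, was at 127, 102 and 163 CPM in lung WT against 2.56, 0 and 0 CPM in spleen WT, whereas Egr1, an early gene of antigen receptor signals, was lower in WT lung (20.5, 18.7 and 16.0 CPM) than in WT spleen (79.8, 106 and 66.3 CPM). Between genotypes, 4 of the 21 genes were higher and 0 lower in lung ∆Foxp3 (9.74% and 10.5% of all tested genes). In spleen ∆Foxp3, 1 was higher and 4 lower (14.1% and 12.5% of all). In the interaction, 3 were higher and 0 lower (0.143% and 0.782% of all). Whether these counts held without the 3 libraries that stand apart is not given here. The part of these genes in the Klf6 and Klf10 differences was not tested.

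S1pr1 and Ccr7, which Klf2 and Foxo1 are known to drive, were lower in ∆Foxp3 Treg of both tissues. The part of Klf2 and Foxo1 in these levels was not tested. Of 7 genes of lymphocyte egress, homing and survival, 2 fell in spleen ∆Foxp3 (S1pr1 and Ccr7) and 0 rose, with a median log2 change of -0.36. In lung, 4 fell (S1pr1, Ccr7, Itgb7 and S1pr4) and 0 rose, with a median of -0.63. Over all tested genes 12.5% were called lower in spleen and 10.5% in lung, so the spleen count of 2 is not read as a result about the list. S1pr1, the receptor that guides T cells out of lymphoid organs, was at 628, 705 and 669 CPM in spleen WT and 272, 238 and 378 in spleen ∆Foxp3, and at 767, 858 and 857 CPM in lung WT and 223, 320.3 and 177 in lung ∆Foxp3. Its log2 change was -1.17 ± 0.20 in spleen (adjusted p = 0.00071) and -1.78 ± 0.21 in lung (adjusted p = 5.55e-05), with no overlap in either tissue. Itgb7, an integrin chain of mucosal homing, fell in lung by 1.84 ± 0.37 (adjusted p = 0.00495). This call ended without a low-count filter (0.0534) and with the lung groups alone in the fit (0.0553). Itgb7 was at 438, 1128 and 1740 CPM in lung WT and 353, 308 and 265 in lung ∆Foxp3. The WT libraries thus spread widely, and lung WT 1 was close to lung ∆Foxp3. Ccr7 fell by 1.44 ± 0.46 in spleen (adjusted p = 0.0353), a call that ended on leaving out any of spleen WT 1 (0.12), spleen WT 2 (0.0824), spleen WT 3 (0.0694), spleen ∆Foxp3 2 (0.134), spleen ∆Foxp3 3 (0.138), lung WT 2 (0.0549) or lung ∆Foxp3 2 (0.0558), without a low-count filter (0.216) and with limma voom (0.142), each given as its adjusted p. In lung, Ccr7 fell by 1.99 ± 0.46 (adjusted p = 0.0108), a call that ended without a low-count filter (0.0926), with the lung groups alone in the fit (0.0684) and without the 3 libraries that stand apart (-1.23, adjusted p = 0.0508). That removal left 2 genes of the list called in lung. Il7r and Cxcr3 did not pass in either tissue.

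Foxo1 and Foxo3, upstream of Klf2, fell in both tissues, whereas Klf2 passed in lung alone. The part of Foxo1 and Foxo3 in the level of Klf2 was not tested. Of 12 tested genes of the FOXO and MEF2 inputs, 4 fell and 1 rose in spleen ∆Foxp3, and 4 fell and 0 rose in lung, beside the shares over all genes given above. Foxo1, which induces Klf2 in resting T cells, was at 134, 162 and 174 CPM in spleen WT and 31.3, 42.9 and 32.6 in spleen ∆Foxp3, and at 192, 184 and 177 CPM in lung WT and 44.8, 34.7 and 28.1 in lung ∆Foxp3. Its log2 change was -2.14 ± 0.19 in spleen (adjusted p = 4.59e-06) and -2.36 ± 0.19 in lung (adjusted p = 3.76e-06), with the genotypes far apart in both tissues. Foxo3 fell as well, at -1.73 ± 0.30 in spleen (adjusted p = 0.000679) and -1.40 ± 0.29 in lung (adjusted p = 0.00419). Mapk7, the kinase ERK5 that signals to MEF2, fell in spleen by 0.72 ± 0.18 (adjusted p = 0.00745), and Mef2d fell in lung by 1.04 ± 0.23 (adjusted p = 0.00655; -0.86, adjusted p = 0.0725 without the 3 libraries that stand apart). That removal left 2 calls in lung. Of 13 genes of naive and resting T cells, some of them also in the lists above, 10 fell and 0 rose in each tissue (12.5% of all tested genes fell in spleen and 10.5% in lung). Of 16 cell cycle genes, 16 rose in spleen (14.1% of all) and 9 in lung (9.74% of all, and 2 genes without the 3 libraries that stand apart).

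**Figure D5:**
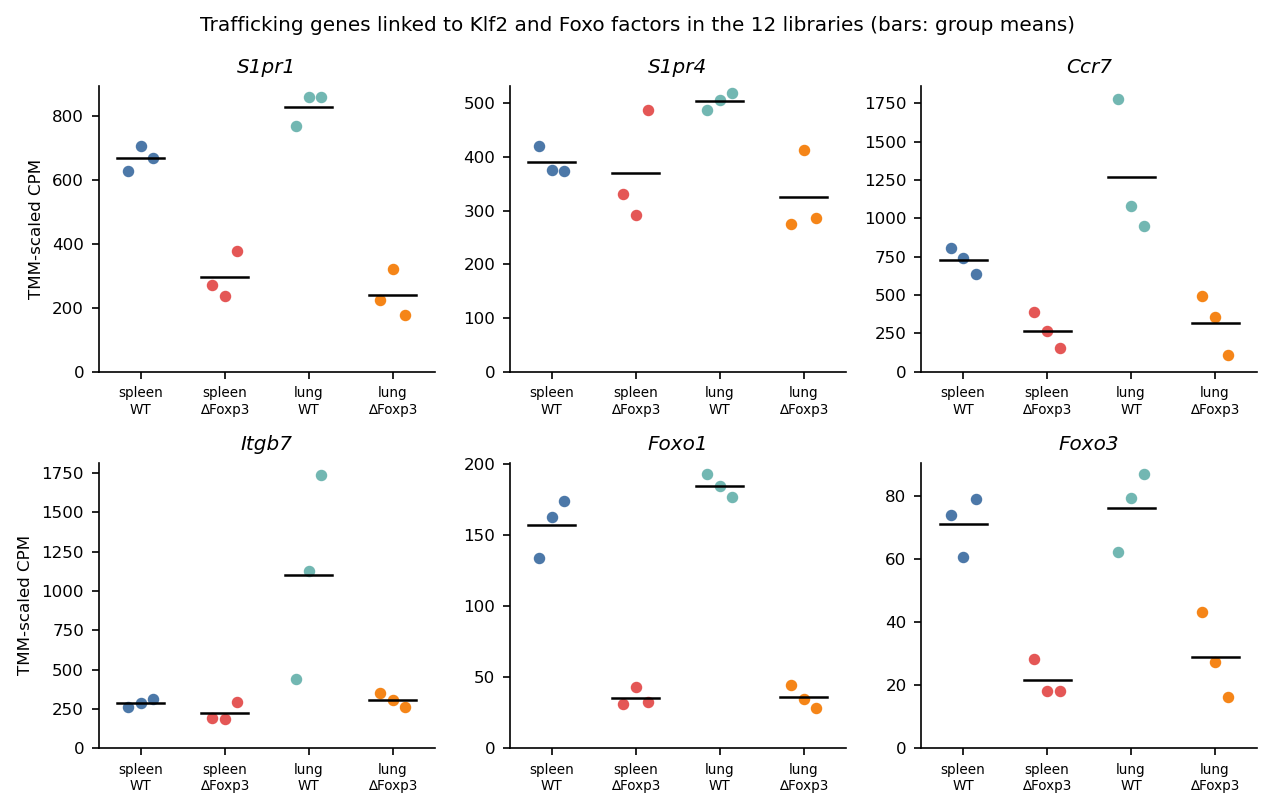
TMM-scaled CPM of S1pr1, S1pr4, Ccr7, Itgb7, Foxo1 and Foxo3 in each library, with a bar at the group mean and axes from 0. S1pr1, Ccr7, Foxo1 and Foxo3 are lower in every ∆Foxp3 library than in every WT library of the same tissue, S1pr4 is so in lung but overlaps in spleen, and Itgb7 is high in lung WT alone.

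Partners of the other members were counted in the same way. Among 11 TGF-beta pathway genes linked to Klf10 and Klf11, 3 rose and 4 fell in spleen ∆Foxp3 (14.1% and 12.5% of all tested genes). In lung, 1 rose and 3 fell (9.74% and 10.5% of all), with 2 calls left without the 3 libraries that stand apart. The 1 that rose in lung is near the share over all genes and no result about the list. Smad7, an inhibitor of TGF-beta signals that Klf10 is known to repress, was at 31.2, 29.3 and 23.6 CPM in spleen WT and 11.4, 9.11 and 8.90 in spleen ∆Foxp3, and at 39.0, 38.4 and 37.3 CPM in lung WT and 15.5, 13.3 and 8.26 in lung ∆Foxp3. Its log2 change was -1.52 ± 0.26 in spleen (adjusted p = 0.000735) and -1.63 ± 0.26 in lung (adjusted p = 0.000732), while Klf10 rose in both. The part of Klf10 in the level of Smad7 was not tested. Skil fell in spleen by 1.42 ± 0.30 (adjusted p = 0.00289). Of 11 tested corepressors and coactivators, which include Ctbp1, Sin3a and the deacetylases, 1 fell in spleen and 2 in lung, and 0 rose, which is near the 12.5% and 10.5% of all tested genes called lower and no result about the list. Crebbp, a histone acetyltransferase, fell in both, at -0.50 ± 0.14 in spleen (adjusted p = 0.0181) and -0.75 ± 0.15 in lung (adjusted p = 0.00249). The spleen call ended without spleen WT 2 (adjusted p = 0.06), spleen ∆Foxp3 1 (0.0653), spleen ∆Foxp3 2 (0.0683) or the 3 libraries that stand apart (0.0505), and with the spleen groups alone in the fit (0.0759). The other lung call, Ep300, held under 9 of 24 alternatives. Of 8 ubiquitin ligases reported to act on KLF proteins, 1 fell in spleen, and 2 fell and 1 rose in lung (1 call without the 3 libraries that stand apart). The spleen count is again at the 12.5% of all tested genes. In lung 10.5% of all tested genes fell and 9.74% rose, so the 1 that rose is no result about the list. Nedd4l fell in both, at -2.56 ± 0.37 in spleen (adjusted p = 0.000183) and -1.97 ± 0.36 in lung (adjusted p = 0.00158).

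Of 7 further KLF genes, Klf8 and Klf16 had enough counts for the test, and neither passed in either tissue. Klf16 averaged 12.6 to 16.2 CPM in the 4 groups, or 4.71 to 6.05 CPM per kilobase, in the range of Klf7 and Klf11. Klf8 had 0, 1 and 6 counts in spleen WT and 14, 9 and 16 in spleen ∆Foxp3 (adjusted p = 0.0674). Klf1, the erythroid factor, had 0, 0 and 0 counts in spleen WT and 14, 4 and 4 in spleen ∆Foxp3, where the summed level of 8 erythroid and platelet markers, Klf1 among them, was 11.7 to 400.2 CPM against 9.10 to 16.6 in spleen WT, and where the library with 14 counts had that highest sum. Of the 4 tested Sp factors, which bind the same GC-rich elements, 0 changed in spleen and Sp3 fell in lung by 1.00 ± 0.33 (adjusted p = 0.0474). That call ended on leaving out any single library other than spleen WT 1, spleen WT 3 and lung WT 1, with adjusted p up to 0.159.

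Markers of other cells that express KLFs were examined beside these results. Endothelium is known for high Klf2. The summed level of 6 endothelial markers was 270 to 329 CPM in spleen WT and 89.7 to 147 in spleen ∆Foxp3. In lung it was 283 to 330.4 CPM in WT and 113 to 119 in ∆Foxp3. That sum was lower in ∆Foxp3 of both tissues, whereas Klf2 passed in lung alone. Nearly all of the sum was Pecam1, which T cells also express. The other markers were low on average: Cdh5 averaged at most 1.33 CPM, Kdr at most 0.798, Vwf at most 2.49, Tie1 at most 0.586 and Cldn5 at most 3.52 in any group, and Cldn5 was at 0 in both spleen groups. Single lung libraries held more, with 37 counts of Cldn5 and 32 of Vwf in lung WT 3 and 28 of Cldn5 in lung ∆Foxp3 3. B cells are known for Klf2 and Klf3, and the sum of 7 B and plasma cell markers was 1115 to 1274 CPM in spleen WT, 76.5 to 160 in spleen ∆Foxp3, 1928 to 1970 in lung WT and 134 to 260.5 in lung ∆Foxp3. Nearly all of that was Ighm, at 1190.0 ± 88.6 CPM (SD, n = 3) in spleen WT. Cd79b was at 18.4 to 35.7 CPM in every library with no separation of the genotypes. Cd79a, at 4.01 to 5.54 CPM in spleen WT and 1.43 to 2.40 in spleen ∆Foxp3, and at 3.88 to 7.77 in lung WT and 1.78 to 2.77 in lung ∆Foxp3, was lower in every ∆Foxp3 library, as were Klf3 and Ighm. Ms4a1 averaged at most 0.962 CPM, Pax5 at most 0.230, Ebf1 at most 0.724 and Jchain at most 1.04 in any group.

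Red cell markers differed between the groups as well. The 8 erythroid and platelet markers, mostly hemoglobin genes, summed to 1974 to 4902 CPM in lung WT and 1.19 to 407 in lung ∆Foxp3, so that lung WT stood above the other 3 groups, as it did in Klf6 and Klf2. Of the 6 tested, 3 were lower in lung ∆Foxp3 than in lung WT (10.5% of all tested genes). In WT, 4 were higher in lung than in spleen (3.1% of all). Klf1 itself had 0, 1 and 0 counts in lung WT. The summed level of 7 lung epithelial markers was also lower in ∆Foxp3, at 21.4 to 40.7 CPM in spleen WT, 12.2 to 17.9 in spleen ∆Foxp3, 38.1 to 206 in lung WT and 14.3 to 25.6 in lung ∆Foxp3. The genes did not move together: of the 5 tested, 1 was called lower and 1 higher in spleen ∆Foxp3, and 3 lower and 1 higher in lung ∆Foxp3. The summed level of 7 fibroblast and smooth muscle markers was higher in ∆Foxp3, at 4.47 to 6.35, 19.2 to 24.9, 8.40 to 11.1 and 20.8 to 52.5 CPM in the same order. Of the 2 tested, 1 was called higher in each tissue. The sum of 10 myeloid markers was lower in lung ∆Foxp3 (161 to 236 CPM) than in lung WT (259 to 515) and overlapped in spleen. Of the 9 tested, 1 was called lower and 0 higher in lung, and 1 lower and 1 higher in spleen. The sums for NK and CD8 T cells and for neutrophils and mast cells overlapped between genotypes in both tissues. Over all tested genes, 12.5% were called lower and 14.1% higher in spleen, and 10.5% lower and 9.74% higher in lung, so the myeloid counts are not read as a result about the list. The part of these cells in the results was not tested.

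For the 3 members with the highest mean CPM, the tested genes with the most similar profile over the 12 libraries were found by the root mean square difference between log2 CPM values, each centred on its own mean. Nearest to Klf13 were Rabac1 (0.13), Bod1l (0.15), Tnrc6c (0.15), Cox7a2l (0.15) and Rps27 (0.16), against a median of 0.55 over 8926 genes; Klf13 itself varied by 0.39. Nearest to Klf3 were Ifi206 (0.30), Arhgap20 (0.32), Ift80 (0.35), Aven (0.36) and Arl5c (0.36), against a median of 1.53. Ift80, the most abundant of these, averaged 369.7 CPM in spleen WT, 58.9 in spleen ∆Foxp3, 368 in lung WT and 57.5 in lung ∆Foxp3, a step between genotypes like that of Klf3. Klf6 had no such close neighbour: Pde4b (0.42), Lamc1, Dennd4a, Mxi1 and Crem (0.44 each) were nearest, against a median of 1.02. Pde4b, a cAMP phosphodiesterase, averaged 111 CPM in spleen WT, 57.8 in spleen ∆Foxp3, 191 in lung WT and 106 in lung ∆Foxp3. Among the 10 members themselves, Klf7 and Klf13 were the closest pair (0.41). Klf13 varied by only 0.39 about its own mean, so this closeness is not read as a shared profile. Klf3 stood 0.93 from its nearest member, Klf7.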

How the data were processed

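Per the labels' protocols, sorted Treg were lysed directly and polyadenylated RNA was amplified by Smart-seq2 without molecular identifiers. The submitters' processing notes name mm10, Subread 2.0.0 with featureCounts, and STAR 2.7.3a; which annotation and strand setting went into counting is not given. Values are read counts as deposited by the authors, 1 table keyed by gene symbol, used unchanged. Genes were tested with edgeR 4.0.16 (R 4.3.3): TMM factors, low-count filter by group, robust quasi-likelihood F test, 1 fit of the 4 groups over 12 libraries, two-sided, Benjamini-Hochberg adjustment over 13295 genes, called at an adjusted p under 0.05. SE is the log2 change divided by the root of F. Levels per kilobase use merged exons of GENCODE M21 (mm10). Counting limits cover counting error only. The fit was tested on simulated data. Alternatives were RLE and upper-quartile factors, plain library totals, no low-count filter or a filter of 10 CPM in 3 libraries, DESeq2 1.42.0, limma 3.58.1 voom with quality weights, the compared groups alone, the replicate number as a block, leaving out each library, 3 libraries together, or sets of repeat-rich genes or of mitochondrial, ribosomal, hemoglobin and receptor genes. The members and gene lists were chosen with earlier results of these data known. All members are named; of each other list, up to 3 called genes per comparison (smallest adjusted p) or, with none called, the 2 of highest mean can be named with statistics; the 5 most similar genes were taken for the 3 most abundant members. Among the genes named outside that rule are S1pr4, Il7r, Cxcr3 and Klf1, and the endothelial and B and plasma cell markers given by level. Some genes of the lists were left out and are not reported here.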

Additional observations from a re-analysis of the deposited data

How the results depend on the processing

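The count of called members was 5 in spleen and stayed within 1.5 times of that under all 24 alternatives (4 to 7 on leaving out 1 library). In lung it was 6, with 3 called without spleen WT 1, lung WT 1 and lung ∆Foxp3 3 together, and 4 to 7 on leaving out 1 library. It was 1 in each tissue comparison throughout. For the interaction it was 0, with 1 called by DESeq2 and 1 by limma voom, and 0 on leaving out any library. Values that changed sign were all far from a call. The spleen log2 change of Klf11 was -0.037 with upper-quartile factors, -0.023 with library totals, -0.089 with limma voom, -0.15 without the 3 libraries and -0.15 to 0.40 on leaving out 1 library. Between ∆Foxp3 lung and spleen, Klf2 was -0.0096 with library totals and -0.24 to 0.38 on leaving out 1 library, Klf3 was 0.26 without the 3 libraries and -0.33 to 0.27 on leaving out 1, and Klf13 was -0.46 to 0.042. Klf7 in WT lung against spleen was -0.24 to 0.075, and the interaction of Klf6 -0.044 to 0.29. The cause was not tested. Same-numbered libraries of different groups did not deviate together (correlations of -0.08 to 0.09 over 18 pairs, against -0.09 to 0.09 over 36 other pairs). No pairing by replicate number was detected, but this cannot exclude that same-numbered libraries share a mouse or a sort. With the replicate number as a block, 5 members were called in spleen, 5 in lung, 1 in each tissue comparison and 0 in the interaction. Over all tested genes, the calls ranged over the alternatives from 281 (without lung WT 3) to 1046 (DESeq2 and limma voom) around 549 in WT lung against spleen, from 42 (without spleen ∆Foxp3 1) to 292 (no low-count filter) around 96 in ∆Foxp3, from 36 (without lung ∆Foxp3 1) to 363 (no filter) around 123 for the interaction, from 1321 (without the 3 libraries) to 4598 (limma voom) around 2686 in lung, and from 2287 (spleen groups alone) to 4107 (limma voom) around 3540 in spleen. The lowest members, Klf4, Klf9 and Klf12, are those that depth limits most.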
